A study of Mus musculus with 15 samples.

Results

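Macrophages that had received IFNγ for 18 h and LPS for 6 h were compared with resting macrophages. Both kinds were bone marrow-derived macrophages of C57Bl/6 mice, and their RNA was hybridised to Illumina bead arrays. The members were the 3 arrays titled for IFNγ and LPS and the 3 arrays titled for control, 6 of the 15 arrays in the series, with every gene that had a detected probe. The LPS was ultrapure Escherichia coli LPS, and the labelled dose of 10 ng/µl may carry a wrong unit. No cytokine and no LPS is named for the control arrays. The study asked how interferon priming changes the macrophage response to LPS, so it also holds 2 arrays of LPS alone and 3 of IFNγ alone, which are used here beside the combined state. Its 4 arrays with IFNβ entered only the shared estimate of the spread. The labels do not say whether replicates came from separate mice or cultures, and every p-value therefore rests on array-to-array spread that may be no more than technical.

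IFNγ is the lymphocyte and NK cell cytokine that signals through its receptor and the kinases Jak1 and Jak2 to genes of antigen presentation and cell-autonomous defence. LPS, a glycolipid on the surface of Gram-negative bacteria, is sensed by the Cd14, Ly96 and Tlr4 complex. Tlr4 signals through Myd88 to NF-kB and AP-1 and through Ticam1 to Irf3 and type I interferon. Macrophages given both agents are the textbook classically activated state, known for nitric oxide, inflammatory cytokines, antigen presentation and killing of intracellular microbes.

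Levels are log2 units of background-corrected, quantile-normalized bead intensity, and a difference is the mean of the IFNγ and LPS arrays minus the mean of the control arrays. A gene is said to have risen or fallen where limma gave an adjusted p under 0.05 over all genes tested. Median raw intensity was 187 to 217 on the IFNγ and LPS arrays and 204 to 230 on the control arrays, and 9342 to 9723 probes against 10250 to 11047 probes were detected. Their number, 3 a group, limits the precision, and the median standard error of a difference was 0.183. All arrays with LPS lay on 1 slide and all arrays without it on another. Slide and treatment therefore cannot be told apart where arrays with LPS are compared with control, which touches every such difference given here. IFNγ alone and control lay on the same slide. The comparison with LPS alone lies within 1 slide.

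Array 1 of the IFNγ and LPS arrays stood apart from its companions. On the second principal component it had a score of 2.0 against 19.1 and 18.6 on arrays 2 and 3, and the LPS arrays had -22.0 and -18.2. Its mean correlation with the LPS arrays over genes was 0.978, against 0.954 and 0.955 for its companions. For 156 genes, arrays 2 and 3 lay at least 1.5 log2 units above LPS alone. There array 1 had gone a median of 0.509 of the way, counted in linear intensity. For 110 genes held that far below LPS alone the median was 0.479. Against control the same fractions were 0.867 over 675 raised genes and 0.955 over 703 lowered genes. In linear intensity array 1 was thus near its companions against control and about midway between them and LPS alone against LPS. These fractions do not carry over to log2 units. The genes were picked by the levels of arrays 2 and 3, which by itself favours a shortfall of array 1. Every array was kept, and values without array 1 are given for some of the results that differ. Where none is given, a value may still shift without array 1.

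**Figure D1:**
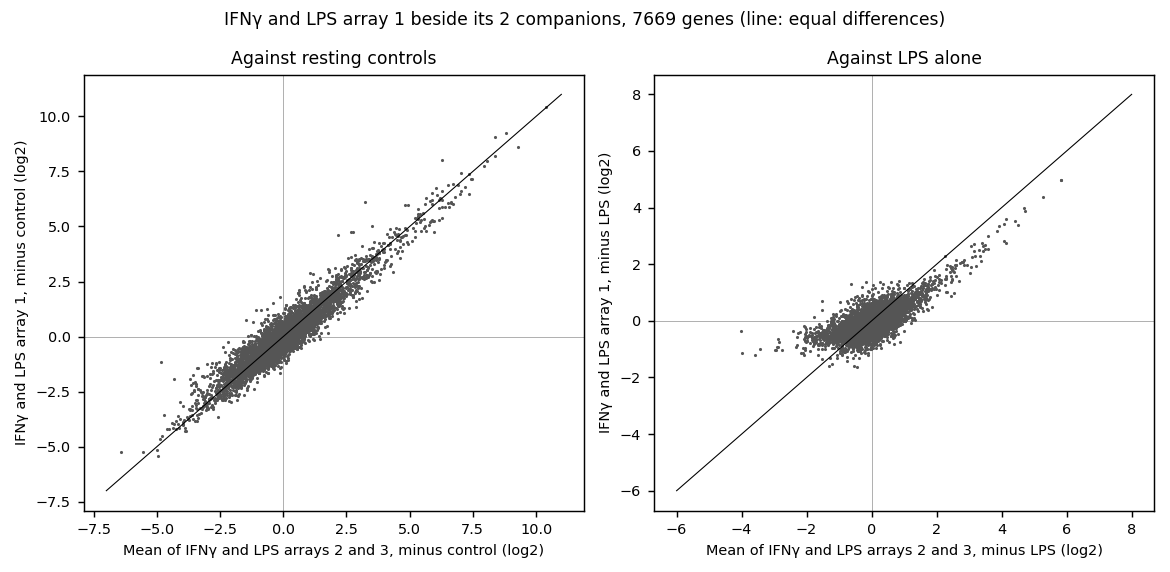
IFNγ and LPS array 1 (y axis) against the mean of arrays 2 and 3 (x axis), each as a log2 difference from the control mean (left) or from the LPS mean (right), with 1 point for each of 7669 genes and the line of equal differences. Points follow the line on the left, while on the right array 1 lies nearer to 0 than its companions. Over 156 raised genes the median of array 1 was 0.509 of their distance in linear intensity, not in the plotted log2 units.

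Of 7669 genes tested, 4847 differed from control, or 63.2%. The IFNγ and LPS macrophages had 1897 genes higher, which is 24.7% of those tested, and 2950 lower, which is 38.5%. Counts of list members against control, given below, are to be read beside these shares. At least 2-fold differences were called for 2397 genes (31.3%), of which 1041 were higher (13.6%) and 1356 lower (17.7%). The median gene differed by -0.18, and the middle 90% of genes ran from -1.88 to 2.20. With median scaling the median gene lay at -0.04 and with cyclic loess at -0.0038, and the share of higher genes among those called was 47.3% and 49.5% in place of 39.1%. Without array 1, 1882 genes were higher (24.5%) and 2838 lower (37%). Of all genes tested, 281 were detected in IFNγ and LPS macrophages and on no control array, and 629 the other way round. Such a gene could pass the filter on dim probes through its bright group alone, which favours a difference. Not all of them differed: Pfkfb3, detected in controls only, lay at 0.40 (adjusted p = 0.199). Where such a gene is named as changed, its fold is given as a lower bound. Where only some arrays of a group detected the probe used, the difference is the fitted one and rests partly on levels not above background. Of the named genes, C4b, Il1b, Marco, Mx1, Slc7a2, Sphk1 and Traf1 were detected on 1 control array each. Batf2, Cp, Cxcl10, Il10, Ptges, Rel and Tap1 were detected on 2. Likewise Cdkn1c, Ctsk, Ctsl, Dusp4 and Tk1 were detected on 1 IFNγ and LPS array each, and Dusp6, Fos, Havcr2, Idh3a, Ltc4s and Pparg on 2. Ccl5, Cd40, Cxcl9, Gbp2, Irf1 and Rsad2 had IFNγ and LPS levels near the top of the scale at 15.4, which limits what can be measured. Without background correction differences were smaller: the median of inflammatory cytokines was 1.44 in place of 3.08, that of the NF-kB list 1.63 in place of 2.70 and that of mitosis genes -1.19 in place of -2.41.

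**Figure D2:**
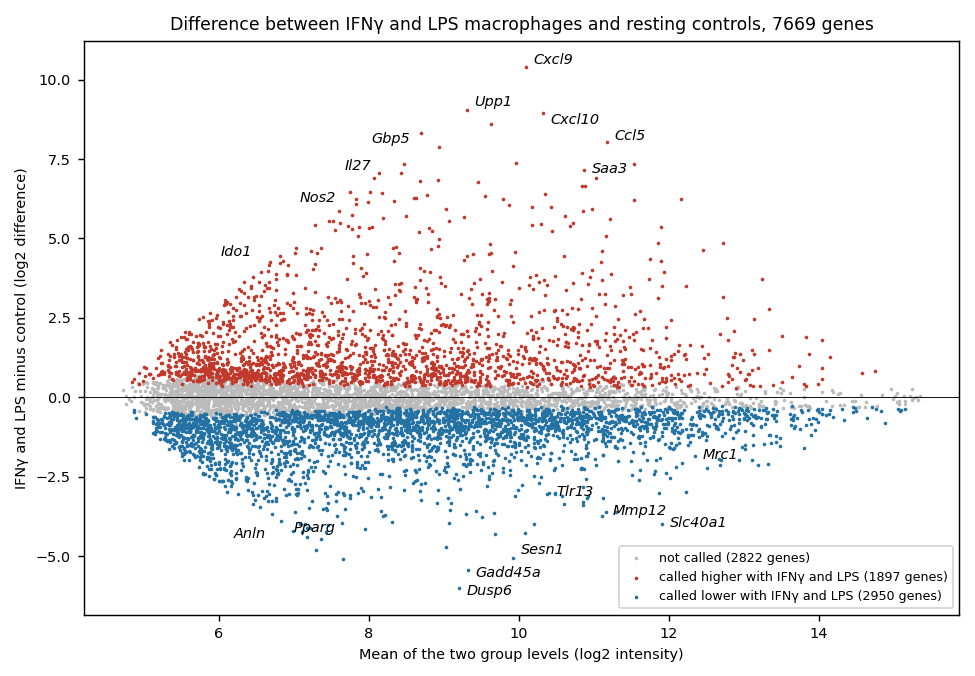
Log2 difference between IFNγ and LPS macrophages and controls (y axis) against the mean of both group levels in log2 intensity (x axis), with 1 point for each of 7669 genes, coloured by call. Ccl5 stood at 8.04, near the top of the scale with IFNγ and LPS, and Dusp6 at -6.02, while points of genes undetected in 1 group show a fitted difference that is no bound.

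Toll-like receptors, genes of LPS sensing and other microbial sensors listed with them mostly rose, while a few fell. Of 26 tested members of the list, 18 rose and 3 fell, with a median difference of 0.72 against -0.18 over all genes. Cd14, the co-receptor that hands LPS to Ly96 and Tlr4, had 13.60, 13.50 and 13.65 with IFNγ and LPS, against 12.25, 12.11 and 12.22 in controls. Tlr4 itself had 8.47, 8.31 and 8.35 with IFNγ and LPS, against 9.47, 9.16 and 9.48 in controls. The groups did not overlap for either gene, and Cd14 rose by 1.39 ± 0.12 (SE, adjusted p = 2.7e-07) while Tlr4 fell by 0.996 ± 0.14 (adjusted p = 1.8e-05). The largest rise of the list was in Clec4e, a C-type lectin receptor for mycobacterial glycolipid, at 13.62, 13.33 and 13.31, against 7.45, 7.46 and 7.40. The largest fall was in Tlr13, a mouse sensor of bacterial ribosomal RNA, at 9.33, 8.73 and 8.63 with IFNγ and LPS, against 11.86, 11.98 and 11.88 in controls. Nod1, a cytosolic peptidoglycan sensor, rose by 3.63, Tlr1 by 2.38 and Tlr6 by 1.84, both partners of Tlr2. Tlr2 rose by 1.11, though array 1 carried much of it, at 12.12 beside 10.61 and 10.64, with controls at 10.09, 9.88 and 10.05.

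NF-kB subunits and their feedback inhibitors rose nearly as a whole. Of 24 tested, 22 rose and 1 fell, with a median of 2.70. Traf1, a signalling adaptor of the TNF receptor family, had 11.71, 11.80 and 11.76 with IFNγ and LPS, against 5.16, 5.37 and 5.94 in controls. It was detected on only 1 of the 3 control arrays, and every array with IFNγ and LPS lay far above the control arrays. Nfkbia, the inhibitor that holds NF-kB in the cytoplasm, rose by 3.81, Nfkbie by 4.54 and the nuclear co-regulator Nfkbiz by 4.50. The subunit genes Nfkb2, Rel and Relb rose by 3.92, 2.81 and 2.73, and Rela by 0.52, which did not pass without IFNγ and LPS array 2 or control array 3 (highest adjusted p = 0.06). The deubiquitinase Tnfaip3, which ends NF-kB signalling, rose by 3.70. Nfkbid, a nuclear inhibitor family member, fell by 0.45, a call that was lost under 8 of 18 alternatives (highest adjusted p = 0.22, with cyclic loess).

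Early response factors were split. In the list of AP-1, Egr and related factors, 11 of 18 rose and 5 fell, with a median of 0.82. Batf2, an AP-1 family factor of interferon-activated macrophages, rose by 6.37, Batf by 4.51, Junb by 2.01 and Cebpb by 1.43. Fos had 7.33, 5.73 and 6.71 with IFNγ and LPS, against 9.50, 10.00 and 9.73 in controls. It fell by 3.15 ± 0.29 (SE, adjusted p = 3.64e-07), and the fall in Egr1 was 2.10. Hif1a, the oxygen-regulated factor that drives glycolytic genes, had 10.16, 10.60 and 10.13 with IFNγ and LPS, against 7.28, 7.46 and 7.85 in controls, a rise of 2.76.

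Interferon signalling genes rose in 15 of 21 cases and fell in 3, with a median of 1.61. Irf1, a transcription factor induced by IFNγ, had 14.97, 15.14 and 15.21 with IFNγ and LPS, against 11.42, 11.33 and 11.42 in controls. Its groups lay far apart, though the IFNγ and LPS levels were near the top of the scale at 15.4. Irf7, which amplifies type I interferon, was detected on no control array and was at least 34.7-fold higher. Irf8, a macrophage lineage factor, rose by 3.47, Jak2 by 4.57, Jak1 by 2.11 and Stat2 by 3.06. The receptor chain Ifngr1 had 8.36, 8.28 and 8.44 with IFNγ and LPS, against 9.99, 9.72 and 10.01 in controls, and fell by 1.55, while Ifngr2 rose by 0.92.

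Of 17 inhibitors of cytokine and MAP kinase signalling, 12 rose and 5 fell, with a median of 1.19. Socs3, which blocks gp130 receptors, had 13.68, 13.74 and 13.52 with IFNγ and LPS, against 6.39, 6.40 and 6.06 in controls, a rise of 7.36 ± 0.19 (SE, adjusted p = 6.01e-13). Socs1, the inhibitor of Jak kinases downstream of IFNγ, was detected on no control array and was at least 13.5-fold higher. Dusp6, a phosphatase of Erk, fell further than any other gene detected in both groups. It had 6.97, 6.19 and 5.45 with IFNγ and LPS, against 11.95, 12.34 and 12.36 in controls, and array 3 was not above background. The fall was 6.02 ± 0.28 (SE, adjusted p = 2.26e-10). Dusp4 fell by 2.73, or by 3.37 without array 1, while Dusp1 and Dusp2 rose by 2.20 and 3.69.

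Inflammatory cytokines rose in 19 of 21 cases and fell in 2, with a median of 3.08. Among the risers, 9 were detected on no control array. Tnf had 14.05, 13.95 and 13.86 with IFNγ and LPS, against 7.5002, 8.23 and 8.31 in controls, a rise of 5.94 ± 0.20 (SE, adjusted p = 1.03e-11). Il27, a subunit that pairs with Ebi3 to form a cytokine for T cells, had 11.70, 12.07 and 12.10, against 4.94, 4.82 and 4.91, and was at least 86.2-fold higher. Ebi3 itself rose by 2.62. The groups of all these genes lay apart, with little spread among the IFNγ and LPS arrays.

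A second set of cytokines differed between the IFNγ and LPS arrays themselves. Il1b had 13.51 on array 1 but 11.64 and 11.90 on arrays 2 and 3, against 5.32, 5.27 and 5.89 in controls. It rose (adjusted p = 7.19e-10), with a fitted difference of 6.86 ± 0.35 (SE) against controls of which only 1 detected it. Edn1, the vasoconstrictor endothelin, had 11.28, 8.22 and 8.64, against 5.13, 5.27 and 5.13, and was at least 14.4-fold higher, or at least 7.48-fold without array 1. For Il1a the values were 12.05, 10.78 and 11.01, against 5.91, 6.16 and 6.13. In each of these genes array 1 was the highest, and on every array the level was above control. Il6 was at least 16.1-fold higher and Ifnb1, the type I interferon gene, at least 5.50-fold, each detected on no control array. Il15 rose by 3.25 and Il18 by 3.08. Osm and Vegfa were the members that fell, by 0.60 and 0.54. Of 18 alternatives, 2 lost the call of Osm (highest adjusted p = 0.0802) and 6 that of Vegfa (highest adjusted p = 0.264), and neither passed with cyclic loess. Il12b was not analysed here.

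Chemokines held the largest rise of the comparison. Cxcl9, a ligand of Cxcr3 that draws activated T cells, had 15.32, 15.18 and 15.40 with IFNγ and LPS, against 4.74, 5.29 and 4.66 in controls. No control array detected it, and it was at least 876-fold higher, at the top of the scale. Cxcl10, another Cxcr3 ligand, had 15.10, 14.57 and 14.72, against 6.26, 6.21 and 5.08, and Ccl5, an attractant of T cells and monocytes, had 15.14, 15.16 and 15.30, against 7.39, 6.81 and 7.29. They rose by 8.95 ± 0.43 and 8.04 ± 0.16 (SE), the first against controls of which array 3 did not detect it and the second to near the top of the scale. Of 18 chemokines tested, 14 rose and 1 fell, with a median of 1.32. Ccl8 and Ccl12, ligands for monocytes, rose by 4.62 and 4.29. The neutrophil attractant Cxcl2 had 9.37 on array 1 and 7.41 and 7.16 on its companions, against 4.64, 4.67 and 4.54, and was at least 5.48-fold higher, or at least 3.38-fold without array 1. Ccl6 was the member that fell, by 1.80, and its groups did not overlap.

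Among receptors for chemoattractants, 6 of 13 rose and 4 fell. Fpr2, a receptor for formylated peptides and serum amyloid A, had 13.01, 12.80 and 12.76 with IFNγ and LPS, against 5.95, 5.87 and 6.36 in controls. Its rise of 6.79 ± 0.17 stood beside one of 7.17 ± 0.34 (SE) in Saa3, a serum amyloid A gene. Cxcr4, the receptor that holds cells in the marrow, was detected on no IFNγ and LPS array, against 9.89, 9.42 and 9.35 in controls, and was at least 12.9-fold lower. C5ar1, the receptor for complement C5a, fell by 1.30.

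Costimulatory and adhesion genes rose in 15 of 18 cases and fell in 2, with a median of 2.70. Cd40, which receives help from T cells, had 15.04, 15.29 and 15.32 with IFNγ and LPS, against 7.66, 8.09 and 7.85 in controls, a rise of 7.35 ± 0.16 (SE, adjusted p = 1.85e-13). Cd86 had 11.78, 12.27 and 12.42, against 8.18, 8.48 and 8.21, and Cd80, its relative, 8.37, 8.34 and 8.52, against 6.54, 6.40 and 6.79. Both ligands of Cd28 rose without overlap, Cd86 by 3.86 and Cd80 by 1.83. Cd274, the checkpoint ligand known as PD-L1, rose by 4.62. The early activation antigen Cd69 and the self-ligand receptor Slamf1 were detected on no control array and were at least 338-fold and 63.3-fold higher. Icam1, the ligand of leukocyte integrins, rose by 3.94 and Vcam1 by 3.60. Havcr2, the inhibitory receptor Tim-3, fell by 2.04.

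Antigen presentation on MHC class II rose in 12 of 15 genes and fell in 3, with a median of 2.42. H2-Aa, an alpha chain, had 12.995, 13.68 and 13.75 with IFNγ and LPS, against 7.84, 7.68 and 7.76 in controls, a rise of 5.72 ± 0.18 (SE, adjusted p = 5.27e-12). Ciita, the master regulator of the class II genes, had 9.42, 10.73 and 10.61, against 4.73, 4.79 and 4.55, and was at least 26.5-fold higher. Cd74, the invariant chain, rose by 5.36, H2-Eb1 by 5.98, H2-Ab1 by 5.61 and the peptide editor H2-DMa by 3.89. For H2-Aa, H2-Eb1, H2-Ab1, Cd74 and Ciita, array 1 was the lowest of its group and still far above control. The members that fell were the proteases Ctsl and Lgmn, by 1.54 and 0.77, and the reductase Ifi30, by 0.35. With median scaling Lgmn lay at -0.12 and did not pass (adjusted p = 0.476), and the call of Ifi30 was lost under 8 of 18 alternatives (highest adjusted p = 0.359).

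Class I presentation rose in 17 of 20 genes and fell in 0, with a median of 1.95. The peptide transporter Tap1 rose by 4.06, the class I transactivator Nlrc5 by 3.93 and the immunoproteasome subunits Psmb9 and Psmb8 by 2.86 and 2.29. H2-K1, a classical heavy chain, had 9.32, 10.10 and 10.07 with IFNγ and LPS, against 7.02, 7.08 and 7.27 in controls. B2m, the light chain, had 15.22, 14.94 and 15.14, against 15.21, 15.21 and 15.20, near the top of the scale in both groups, where its difference was -0.11 (adjusted p = 0.433), or 0.21 with median scaling. With cyclic loess B2m passed as a fall, at -0.37 (adjusted p = 0.0349).

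All 16 tested guanylate-binding and immunity-related GTPases rose, with a median of 5.198, or 4.75 with undetected controls at their bound. These proteins gather on vacuoles that hold microbes and break them. Of the 16, 8 were detected on no control array. Gbp2 had 15.30, 15.30 and 15.29 with IFNγ and LPS, against 9.23, 8.95 and 8.95 in controls, and Igtp, an immunity-related GTPase, had 13.30, 13.33 and 13.51, against 8.16, 8.14 and 7.66. They rose by 6.25 ± 0.12 and 5.39 ± 0.15 (SE), Gbp2 to near the top of the scale. Gbp5, which also promotes inflammasome assembly, was at least 163-fold higher, at 12.74, 12.97 and 12.92, against 5.29, 4.61 and 5.07. Gbp2b was at least 70.5-fold higher. Irgm1 changed least in this list, by 1.90, from a control level that was already high at 12.87, 12.99 and 12.80.

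Antiviral interferon-stimulated genes rose in 40 of 44 cases and fell in 1, with a median of 3.14. Isg15, a ubiquitin-like modifier, had 14.41, 14.09 and 13.998 with IFNγ and LPS, against 7.75, 7.84 and 6.94 in controls, a rise of 6.65 ± 0.20 (SE, adjusted p = 2.84e-12). Mx1, a GTPase against influenza virus, rose by 6.28, Ifit2 by 6.21 and Rsad2, which makes a chain-terminating nucleotide, by 4.85. Oasl1 and Ifi205 were detected on no control array and were at least 98.4-fold and 160-fold higher. Ifitm6 was the member that fell, by 0.77, a call that was lost with cyclic loess and without IFNγ and LPS array 3 or control array 2 (highest adjusted p = 0.0812).

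Sequences before the start of 4 genes that rose are shown because each holds the letters of an element through which Stat, Irf or NF-kB factors are known to act. Genes and letters were chosen after matches had been seen. Each is the 250 bases before the RefSeq start in build GRCm38.p6, written 5′ to 3′ on the strand of the gene, with matches in capitals. The gamma-activated site was searched as TTCNNNGAA, the interferon-stimulated response element as GAAANNGAA and the NF-kB site as GGNNTTTCC, on both strands. In these windows no match of 1 motif overlapped a match of another.
Irf1, chr11:53769764-53770013, plus strand: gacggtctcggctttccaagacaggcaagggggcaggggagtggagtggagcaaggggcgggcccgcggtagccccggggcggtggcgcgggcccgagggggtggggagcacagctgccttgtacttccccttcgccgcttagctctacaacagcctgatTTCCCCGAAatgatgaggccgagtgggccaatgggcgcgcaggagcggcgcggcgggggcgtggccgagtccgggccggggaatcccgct
Isg15, chr4:156200819-156201068, minus strand: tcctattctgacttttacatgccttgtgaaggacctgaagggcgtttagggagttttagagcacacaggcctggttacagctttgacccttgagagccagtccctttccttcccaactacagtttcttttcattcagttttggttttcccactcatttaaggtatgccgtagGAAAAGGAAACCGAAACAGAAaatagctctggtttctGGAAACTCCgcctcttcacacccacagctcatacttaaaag
Cxcl2, chr5:90903649-90903898, plus strand: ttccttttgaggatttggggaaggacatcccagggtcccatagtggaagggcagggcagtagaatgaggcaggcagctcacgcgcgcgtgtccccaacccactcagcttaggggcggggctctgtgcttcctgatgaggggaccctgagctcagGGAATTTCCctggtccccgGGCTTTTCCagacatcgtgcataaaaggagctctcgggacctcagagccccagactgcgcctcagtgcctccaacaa
Gbp5, chr3:142496684-142496933, plus strand: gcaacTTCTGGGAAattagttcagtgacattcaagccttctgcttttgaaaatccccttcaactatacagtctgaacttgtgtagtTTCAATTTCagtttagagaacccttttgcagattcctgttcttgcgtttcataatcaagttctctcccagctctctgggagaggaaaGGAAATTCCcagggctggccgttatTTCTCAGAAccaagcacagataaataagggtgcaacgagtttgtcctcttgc
Irf1 held 1 gamma-activated site match, which began 90 bases before the start, and no match of the other motifs. Isg15 held 3 overlapping response element matches, the farthest beginning 78 bases before the start, and 1 NF-kB match. Cxcl2 held 2 NF-kB matches, the farther beginning 96 bases before the start. Gbp5 held matches of all 3 motifs.

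Over all 32851 windows in the RefSeq table, 7.02% held the gamma-activated site letters, 7.13% the response element and 4.93% the NF-kB letters. Taking the window listed first for each gene, the response element letters stood before 11.5% of 834 genes that were at least 2-fold higher and 4.61% of 1127 that were at least 2-fold lower. Among all 6325 tested genes with a window the share was 6.81%. For the NF-kB letters the shares were 7.79%, 4.7% and 5.44%, and for the gamma-activated site 8.39%, 5.68% and 6.21%. These shares describe letters in a window and were not tested.

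Nitric oxide and oxidant genes were evenly split, with 8 of 19 up and 8 down at a median of -0.15, or 8 up and 6 down at 0.24 with median scaling. Nos2, the inducible nitric oxide synthase, had 10.79, 11.12 and 11.26 with IFNγ and LPS, against 4.61, 5.09 and 5.03 in controls. No control array detected it, and it was at least 46.2-fold higher. Slc7a2, which imports its substrate arginine, rose by 5.06, and Gch1, which makes its cofactor tetrahydrobiopterin, by 2.19. Cybb, the catalytic subunit of the phagocyte oxidase, was detected on no control array and was at least 3.33-fold higher, and Sod2 rose by 2.78. Of the 8 that fell, Gclm by 1.89, Hmox1 by 1.82, Srxn1 by 1.81 and catalase, Cat, by 1.65 are known for protection against oxidants, as is Sod2. Arg1 was not analysed here.

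Ido1 and Kynu of tryptophan breakdown rose, while several genes listed with the citric acid cycle fell. Ido1, which opens the kynurenine pathway, had 8.47, 9.49 and 9.14 with IFNγ and LPS, against 4.67, 4.47 and 4.67 in controls, and Kynu, a later enzyme of the pathway, had 9.95, 10.91 and 10.73, against 4.71, 4.65 and 4.63. Neither was detected on any control array, and they were at least 11.4-fold and 32.1-fold higher. In the list that joins both pathways, 4 of 24 rose and 11 fell, with a median of -0.43. Over all genes tested 24.7% rose and 38.5% fell. With median scaling 4 of the list rose and 8 fell at a median of -0.25. With cyclic loess 4 rose and 10 fell at -0.17. Idh1, the cytosolic form, had 9.83, 9.33 and 9.18 with IFNγ and LPS, against 12.37, 12.07 and 12.37 in controls, a fall of 2.83 ± 0.17 (SE, adjusted p = 3.22e-09). Fumarase, Fh1, fell by 1.56, mitochondrial Idh2 by 1.13 and Idh3a by 0.98, of which Idh3a did not pass without control array 3 (adjusted p = 0.0626). Sdhd, a subunit of succinate dehydrogenase, rose by 1.04. Acod1, which makes itaconate, was not analysed here.

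Glucose handling rose in 8 of 19 genes and fell in 4, with a median of 0.40. Slc2a6, a hexose transporter, had 14.28, 14.21 and 14.40 with IFNγ and LPS, against 9.30, 9.41 and 9.56 in controls, a rise of 4.87 ± 0.18 (SE). The phosphofructokinase Pfkp rose by 2.51 and Hk1 by 1.32, while Slc2a3, a high-affinity glucose transporter, was detected on no IFNγ and LPS array and was at least 2.5-fold lower. The glycolytic enzymes Tpi1 and Ldha lay at -0.14 and -0.26 and did not pass, while with median scaling they stood at 0.50 and 0.38 and passed. Without background correction Ldha passed as a fall, at -0.26 (adjusted p = 0.0306). The respiratory chain had 8 of 38 up and 11 down at a median of -0.15, which became 20 up and 2 down at 0.39 with median scaling and 13 up and 5 down at 0.17 with cyclic loess. Its direction thus depended on the scaling. Upp1, which splits uridine into uracil and ribose phosphate, was at least 317-fold higher, at 13.37, 13.998 and 14.13, against 4.55, 5.06 and 4.72.

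In prostaglandin and leukotriene synthesis, 4 of 12 rose and 6 fell, or 4 and 4 with median scaling. Ptgs2, the inducible cyclooxygenase, had 9.08, 9.19 and 9.58 with IFNγ and LPS, against 4.53, 5.07 and 4.66 in controls, and was at least 13.5-fold higher. The prostaglandin E synthase Ptges rose by 2.21, while Hpgds, for prostaglandin D, and Ltc4s, for cysteinyl leukotrienes, fell by 1.96 and 1.48. Inflammasome and cell death genes rose in 14 of 21 cases and fell in 4, with a median of 1.09. Casp4, the cytosolic LPS sensor of mouse cells, had 12.69, 12.77 and 12.66, against 9.16, 9.09 and 9.19, a rise of 3.56 ± 0.11 (SE), and the pore protein Gsdmd rose by 1.67. Naip5, a receptor for flagellin, fell by 1.14.

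Complement and Fc receptor genes, with scavenger receptors, rose in 11 of 24 cases and fell in 7, or in 16 and 6 with median scaling. Cfb, complement factor B, was detected on no control array and was at least 27.3-fold higher, and C4b rose by 2.66. Fcgr1, the high-affinity receptor for IgG, had 12.26, 11.79 and 11.86 with IFNγ and LPS, against 9.49, 9.75 and 9.71 in controls. Fcgr1 rose by 2.32 and the scavenger receptor Marco by 2.80, while Stab1 fell by 2.25. Among 11 proteases and matrix genes, 6 rose and 5 fell. Mmp14, a membrane-bound collagenase, rose by 5.56 and the inhibitor Timp1 by 4.70, and the urokinase gene Plau fell by 3.10.

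Mmp12, the macrophage elastase, had the widest spread among the IFNγ and LPS arrays of the genes named here. Array 1 had 11.80 and arrays 2 and 3 had 7.97 and 8.29, against 12.88, 13.17 and 12.84 in controls. All 3 lay below every control array, and the fall was 3.61 ± 0.68 (SE, adjusted p = 0.000341), or 4.83 without array 1. LPS alone gave 12.08 and 12.24, close to array 1, and IFNγ alone 7.52, 7.34 and 7.49, close to arrays 2 and 3.

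Macrophage identity and alternative activation genes fell more often than they rose, as did all genes tested (38.5% lower, 24.7% higher). In the lineage list, 4 of 28 rose and 17 fell, with a median of -0.67, or 6 and 14 with a median of -0.33 with median scaling. Gpnmb, a glycoprotein of mature macrophages, and Lyz2, the macrophage lysozyme, stood near the top of the scale in both groups, with differences of -0.10 and -0.15 that did not pass and that were 0.074 and 0.22 with median scaling. With cyclic loess both passed as falls, at -0.52 (adjusted p = 0.0062) and -0.35 (adjusted p = 0.0439). Cd9, a tetraspanin, had 11.19, 10.49 and 10.67 with IFNγ and LPS, against 13.15, 13.12 and 13.20 in controls, a fall of 2.37 ± 0.17 (SE, adjusted p = 1.84e-08). The lineage factor Cebpa was detected on no IFNγ and LPS array and was at least 2.81-fold lower, Maf at least 1.51-fold lower, and Spi1 rose by 1.40. Apoe, a carrier of lipids, fell by 1.18, or by 0.57 with median scaling, and the protease Ctsk by 2.73, or by 3.39 without array 1. Csf1r was not analysed here.

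Of 14 alternative activation markers, 4 rose and 8 fell, with a median of -1.02. Pparg, a lipid-sensing nuclear receptor, had 5.86, 5.51 and 6.25 with IFNγ and LPS, against 10.08, 10.03 and 9.96 in controls. It was detected on 2 of the 3 IFNγ and LPS arrays and fell by 4.15 ± 0.18 (SE, adjusted p = 1.2e-10). Mrc1, the mannose receptor, had 12.05, 11.09 and 11.16, against 13.14, 13.10 and 13.57, and fell by 1.84. Clec10a, a galactose-type lectin counted in the same list, rose by 1.87. The anti-inflammatory list had 9 of 21 up and 11 down at a median of -0.36, or 10 up and 6 down at 0.16 with median scaling. Il10 rose by 2.67 and the receptor antagonist Il1rn by 2.94, while Gas6, the ligand that lets Axl and Mertk clear dead cells, fell by 3.01 and the glucocorticoid target Tsc22d3 by 3.77.

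Sterol synthesis had 2 of 20 up and 12 down, with a median of -0.93, or -0.59 with median scaling. Sqle, squalene epoxidase, had 10.42, 9.43 and 9.34 with IFNγ and LPS, against 11.81, 11.83 and 12.20 in controls, a fall of 2.22 ± 0.24 (SE, adjusted p = 1.56e-06), and Hmgcs1 fell by 1.06, though with median scaling it lay at -0.43 and did not pass (adjusted p = 0.0844). In the list of cholesterol efflux and LXR-linked genes, 2 of 21 rose and 16 fell, among them the desaturases Fads1 and Scd1, by 2.33 and 1.95. Ch25h, which makes the antiviral oxysterol 25-hydroxycholesterol, was 1 of the 2 risers and was at least 29.6-fold higher, at 10.50, 10.11 and 10.63, against 5.39, 4.79 and 4.92. Lysosomal genes had 9 of 44 up and 24 down at a median of -0.38, against 13 up and 11 down at 0.02 with median scaling.

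Slc40a1, the iron exporter ferroportin, had 9.61, 9.94 and 10.20 with IFNγ and LPS, against 14.20, 13.80 and 13.73 in controls. It fell by 3.995 ± 0.19 (SE, adjusted p = 2.56e-10), the largest fall of 22 iron genes, of which 6 rose and 11 fell, or 6 rose and 8 fell with median scaling. The transferrin receptor Tfrc fell by 3.10. Among the risers were Lcn2, which withholds iron from bacteria, by 4.08, and the ferroxidase Cp, by 4.44. Hamp, the hormone hepcidin that degrades ferroportin, was detected on no control array and was at least 2.14-fold higher.

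Most genes of cell division fell. Of 36 DNA replication genes, 0 rose and 30 fell, with a median of -1.52, and of 29 mitosis genes 2 rose and 24 fell, with a median of -2.41, or -2.02 with undetected members at their bound. Of the 29, 12 were detected on no IFNγ and LPS array. Mcm6, a subunit of the replicative helicase, had 8.17, 6.84 and 6.69 with IFNγ and LPS, against 9.83, 10.19 and 9.79 in controls, and fell by 2.71 ± 0.31 (SE, adjusted p = 3.27e-06). Cdk1, the mitotic kinase, had 7.25, 7.06 and 7.34, against 10.07, 10.25 and 10.14, and fell by 2.93. The thymidine kinase Tk1 fell by 3.33 and Dnmt1 by 3.03. Anln, a protein of the cleavage furrow, was at least 9.44-fold lower. Tpx2, a spindle protein, rose by 1.96, and Pcna lay at -0.25 and did not pass.

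Cyclins, arrest genes and p53-linked genes moved in both directions, with 8 of 30 up and 15 down. Over all genes tested 24.7% rose and 38.5% fell. Gadd45a and Sesn1, both stress genes, had the largest falls after Dusp6 among genes detected in both groups. Gadd45a had 6.79, 6.47 and 6.55 with IFNγ and LPS, against 12.19, 11.89 and 12.05 in controls, and Sesn1 had 7.31, 7.27 and 7.63, against 12.56, 12.39 and 12.38. The falls were 5.44 ± 0.17 and 5.04 ± 0.18 (SE). Cdkn1c, an inhibitor of cyclin-dependent kinases, fell by 3.53, or by 4.33 without array 1, while Cdkn1a rose by 1.48. Ccnd2 rose by 5.22 and Ccnd1 fell by 2.06, both D-type cyclins. Among cytosolic ribosomal protein genes 1 of 35 rose and 19 fell at a median of -0.40, against 6 up and 2 down at 0.18 with median scaling, so their direction depended on the scaling too. Of 25 genes for ER chaperones, Atf4 and amino acid supply, 5 rose and 9 fell, with a median of -0.27, or -0.12 with median scaling.

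Other genes with very large falls lay outside these pathways. St6gal1, a sialyltransferase, had 6.87, 6.54 and 6.59 with IFNγ and LPS, against 11.49, 11.22 and 11.43 in controls, and fell by 4.71 ± 0.17 (SE). Lhfpl2 fell by 4.28 and Slc46a3, a lysosomal transporter, fell by 4.32. Rasgrp3, an activator of Ras-family GTPases, was detected on no IFNγ and LPS array, against 10.10, 10.27 and 10.24 in controls, and was at least 20.3-fold lower. Htr2b, a serotonin receptor, was likewise at least 13.3-fold lower. Of the other very large rises, Il4i1, an amino acid oxidase, was at least 94.5-fold higher, and Calhm6, a pore-forming membrane protein, rose by 6.89.

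**Figure D3:**
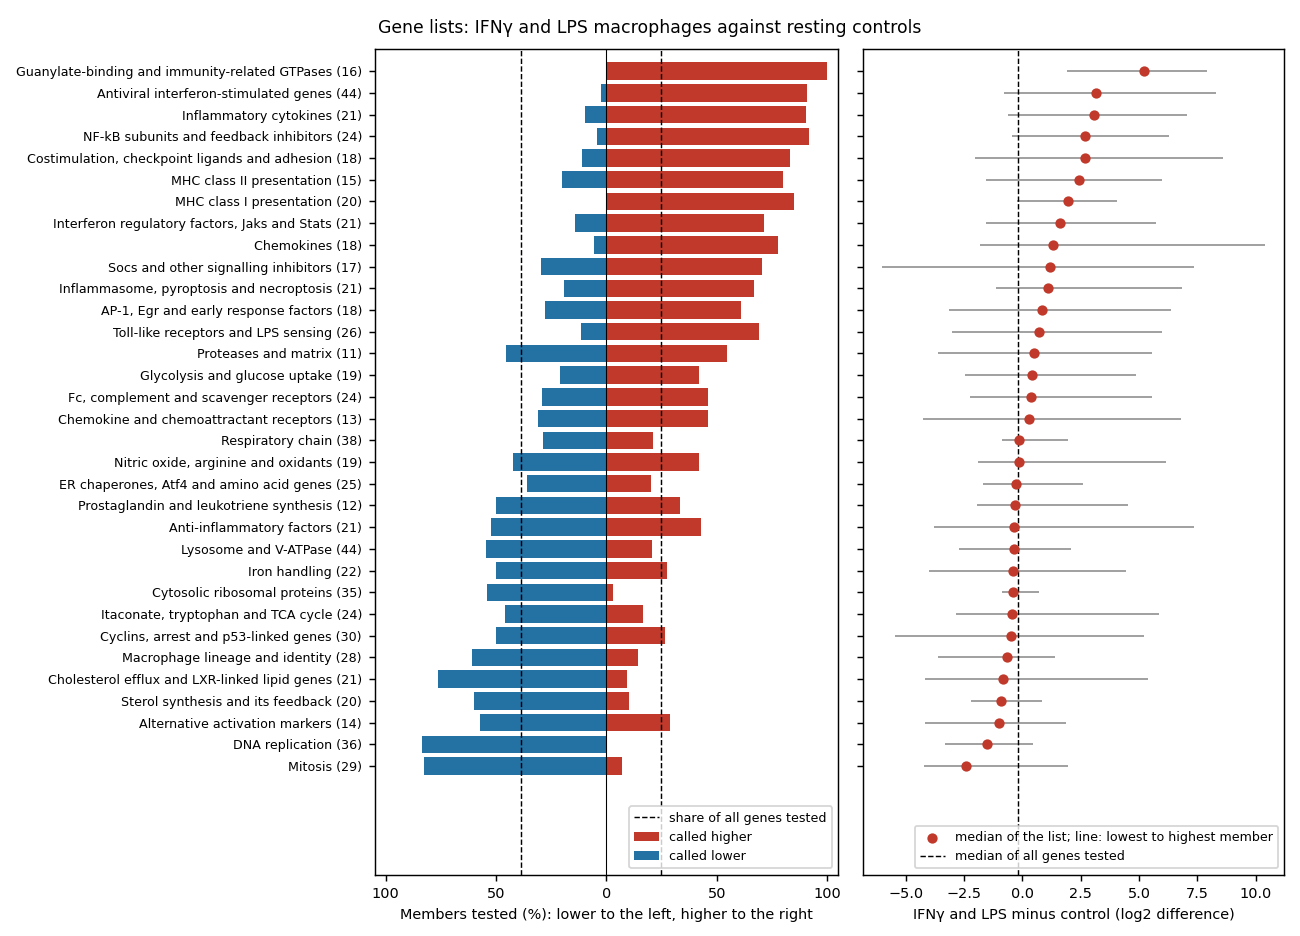
For each list with at least 10 tested members (number in brackets), the left panel gives the share called higher (bars to the right) or lower (bars to the left) with IFNγ and LPS, and the right panel the median and range of the log2 difference from control. Dashed lines give the same over all 7669 genes, 24.7% higher, 38.5% lower and a median of -0.18. Lists run from the GTPases, with 16 of 16 higher, to mitosis, with 24 of 29 lower.

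The same lists can be set beside each agent alone. Against the same control arrays, IFNγ alone raised 13 of 15 class II genes at a median of 2.28, and LPS alone raised 8 at a median of 0.50. The share of all genes called was 26.1% for IFNγ alone (11.5% higher, 14.6% lower) and 55.2% for LPS alone (21.2% higher, 34% lower). For the NF-kB list the medians were 0.14 for IFNγ alone and 2.56 for LPS alone, and for inflammatory cytokines 0.12 and 3.17. The GTPase medians were 4.51 for IFNγ alone and 4.14 for LPS alone. In the mitosis list LPS alone lowered 23 of 29 genes at a median of -2.48, while IFNγ alone lowered 3 at a median of 0.003. Sterol synthesis ran the other way, with 13 of 20 lower and a median of -0.90 for IFNγ alone, and 4 lower and a median of 0.07 for LPS alone. These comparisons share the control arrays with that of the combined state. IFNγ alone lay on the slide of the controls and LPS alone on the other. The shares and medians of LPS alone may thus hold a slide difference that those of IFNγ alone do not.

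Combined IFNγ and LPS differed from LPS alone in 980 genes, or 12.8%, with 522 higher (6.81%) and 458 lower (5.97%). The count rose to 1500 without array 1 and was 203 with the spread taken from the compared arrays alone. In this comparison 10 of 15 class II genes were higher and 0 lower, with a median difference of 2.45 against -0.03 over all genes. H2-Aa had 8.78 and 9.27 on the LPS arrays and lay 4.45 ± 0.21 higher in the combined state (SE, adjusted p = 1.69e-08). Among 20 sterol synthesis genes 9 were lower than with LPS alone and 1 was higher. Of 44 antiviral genes 2 were higher and 11 lower, and of 21 cytokines 5 were higher and 7 lower. Il1b differed from LPS alone by -1.73 ± 0.40 (SE, adjusted p = 0.0117), or -2.30 without array 1, and the call was lost when either LPS array was left out (adjusted p = 0.0708 and 0.0673). Against IFNγ alone, which lies on the other slide, 4090 genes differed, or 53.3%.

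**Figure D4:**
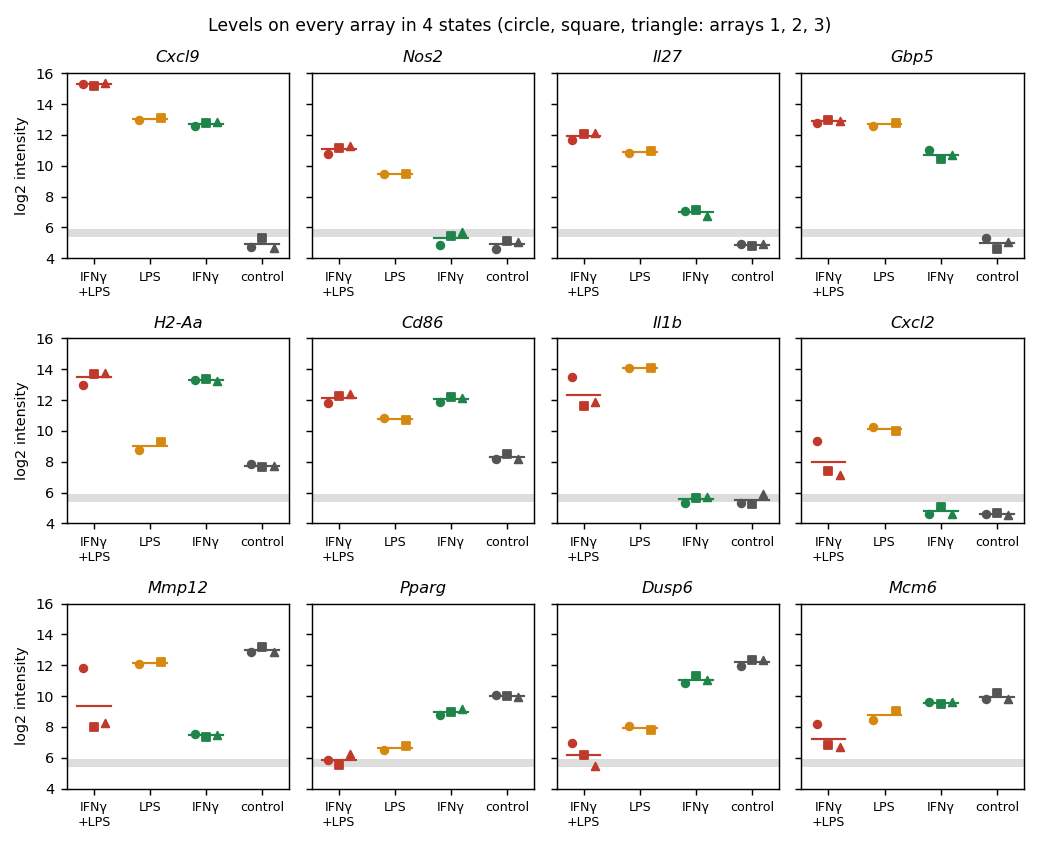
Log2 intensity (y axis) of 12 genes on every array with IFNγ and LPS, LPS alone, IFNγ alone and neither (control). Symbols mark arrays 1, 2 and 3, short lines the group means and the grey band the lowest detected signal over the arrays. Circles for array 1 stand apart from their companions in Mmp12, Cxcl2 and Il1b, where array 1 had 11.80, 9.37 and 13.51.

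Some genes lay outside all 3 other states in the combined state. There were 223 genes above control, IFNγ alone and LPS alone, or 2.91%, and 183 below all of them, or 2.39%, where each of the 3 tests passed. Leaving out single arrays gave 190 to 680 such genes in all, and the 680 came without array 1. Ido1 had 4.51 and 4.71 with LPS alone and 5.51, 5.17 and 5.45 with IFNγ alone, on arrays that did not detect it, so among these 4 states it was detected in the combined one alone. The ubiquitin-like modifier Ubd had 10.15, 11.11 and 10.92 in the combined state, against 5.17 and 5.18 with LPS alone, 6.65, 7.34 and 7.22 with IFNγ alone and 5.16, 5.53 and 5.37 in controls. Cxcl9 had 12.96 and 13.11 with LPS alone and 12.60, 12.75 and 12.81 with IFNγ alone, and its mean in the combined state lay 2.27 above the higher of these means. Nos2 had 9.45 and 9.48 with LPS alone and 4.89, 5.42 and 5.73 with IFNγ alone, and the combined state lay 1.59 ± 0.30 above LPS alone (SE, adjusted p = 0.00401). Sphk1, a kinase of sphingosine, was detected on neither LPS array, on no IFNγ array and on 1 control array. In the combined state it had 7.34, 8.01 and 7.92. Upp1 and Kynu lay 1.86 and 1.80 above the nearest other state.

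Of the genes below all 3 other states, Dusp6 had 8.05 and 7.79 with LPS alone and 10.87, 11.30 and 11.04 with IFNγ alone, and differed from LPS alone by -1.72 ± 0.31 (SE, adjusted p = 0.00281). Fos had 8.20 and 8.36 with LPS alone and 10.58, 10.60 and 10.35 with IFNγ alone, and differed from LPS alone by -1.69. Mcm6 differed by -1.53. With the spread taken from the compared arrays alone, these 3 differences from LPS did not pass (adjusted p = 0.0784, 0.0871 and 0.12). In all of these array 1 was the nearest of its group to LPS alone.

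A further set had levels in the combined state that were not the sum of the changes with each agent. There were 974 of these (12.7%), with 471 above the sum (6.14%) and 503 below it (6.56%). Klf9, a transcription factor, fell by 2.17 with LPS alone and fell by 0.97 with IFNγ alone, at 6.70 and 6.60 with LPS alone and 7.46, 8.24 and 7.83 with IFNγ alone. With both it had 8.62, 9.21 and 9.21, against 8.93, 8.81 and 8.72 in controls. Hilpda, a lipid droplet protein, showed the same order, with 10.03, 10.94 and 10.79 in the combined state, 8.18 and 8.46 with LPS alone and 9.20, 9.11 and 9.22 with IFNγ alone, against 10.01, 10.38 and 9.80 in controls. Neither gene differed from control in the combined state by the test (adjusted p = 0.425 and 0.0658), though Hilpda stood at 0.80 without array 1 and passed (adjusted p = 0.00454). Hilpda also passed as a rise with cyclic loess (0.85, adjusted p = 0.0069), with median scaling (0.72, adjusted p = 0.0188) and under further alternatives. Ednrb, the endothelin B receptor, had 10.04, 9.69 and 9.45 with both agents and 6.23, 6.59 and 6.66 with IFNγ alone, against 10.87, 10.69 and 10.86 in controls. Igtp had 13.15 and 13.09 with LPS alone and 13.47, 13.45 and 13.29 with IFNγ alone, near its combined level, and Ch25h had 10.06 and 10.39 with LPS alone and 10.72, 10.71 and 10.83 with IFNγ alone. For both, the sum of the single-agent changes would exceed the highest level in the table, so a level below it was fixed by the scale. For Klf9 the sum, 5.68, lay under the lowest detected signal of every IFNγ and LPS array, so any detected level there lay above it.

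**Figure D5:**
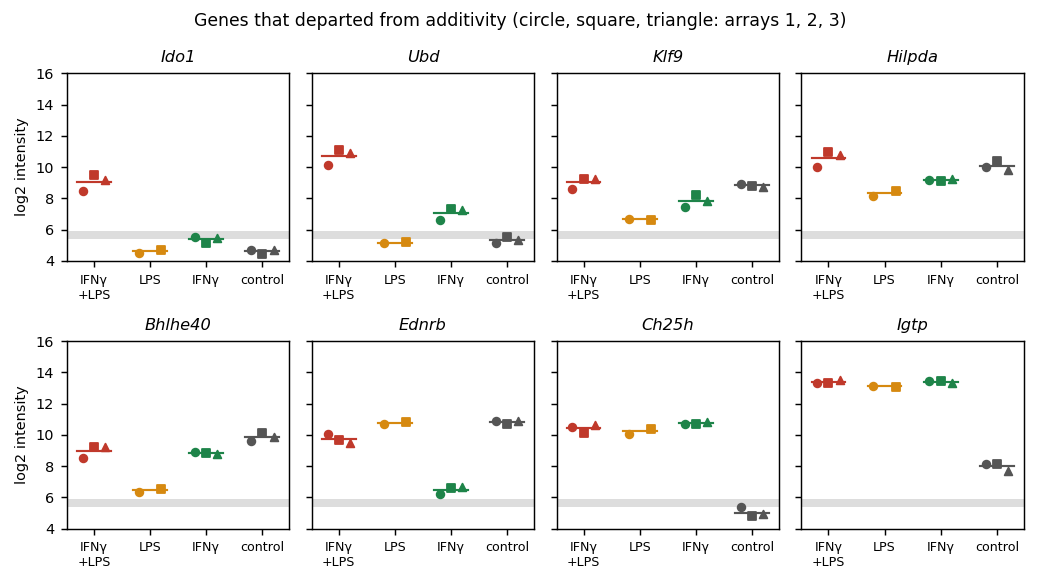
Log2 intensity (y axis) of 8 genes on every array in the same 4 states, with symbols for arrays 1, 2 and 3, lines for means and a grey band for the lowest detected signal. Ido1 and Ubd are highest with both agents, Klf9 and Hilpda lie near controls with both and lower with either, and Igtp and Ch25h lie within about 1 log2 unit over 3 states.

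The labelled cell type was checked against markers. Of 28 macrophage lineage genes measured, 21 were detected on every IFNγ and LPS array and 25 on every control array, and their summed linear level was 203221 to 231211 against 310402 to 314999. Of 3 T cell genes measured, 0 were detected on every array of either group, and Cd3e and Thy1 were detected on no array of either. The 7 neutrophil genes summed to 2836 to 3317 with IFNγ and LPS and 2259 to 2736 in controls, and S100a9 did not pass at 0.29. Csf3r rose by 2.33 and Ltf fell by 1.07. The 4 mast cell and basophil genes summed to 1609 to 2605 against 119 to 134. That sum rested on Hdc, histidine decarboxylase, which was at least 40.5-fold higher, while Cpa3 and Fcer1a were detected on no array. Of the 4 NK cell genes, Prf1 rose by 1.37 and Klrk1 was at least 6.26-fold higher. Their summed levels were 428 to 756 against 163 to 190, and Klrb1c and Klrd1 were detected on no array of either group. The sums for 4 B cell genes were 452 to 925 against 1239 to 1354, for 4 dendritic cell genes 179 to 250 against 109 to 120, for 2 fibroblast genes 122 to 154 against 99 to 113 and for 3 erythroid genes 89 to 102 against 83 to 113. The part of such cells in the results was not tested. In RNA of whole cultures, fewer cells of a type and less RNA per cell cannot be told apart.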

How the data were processed

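Bead intensities and their detection p-values for 15 arrays were deposited not normalized, per the file headers, with 1 value of each per probe and array. A separate table holds log2 values that the authors normalized, by a method not given in the sources used here, and it served as an alternative (lowest correlation with the values used here 0.9998). From the intensities, limma 3.58.1 in R 4.3.3 estimated the background from the detection p-values, added an offset of 16, applied quantile normalization and took log2. Of 15978 probes, 14994 had 1 gene symbol, 984 had none and 0 had several. Probes stayed in if at least 1 group had a detection p under 0.01 on all its arrays, and each gene was represented by its probe of highest mean. Of 7669 genes tested, 2018 had several kept probes, and in 37 of them 2 called probes ran in opposite directions.

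One linear model with a mean for each of the 6 groups was fitted to all arrays, with moderated variances and Benjamini-Hochberg adjustment over all genes. The departure from additivity is the combined level minus both single-agent levels plus control. A gene lay outside all 3 other states where all 3 tests passed in 1 direction. The fit was tested on simulated data with 200 changed genes of 7669: for IFNγ and LPS against control, 76% of changes of 1 log2 unit and 99% of changes of 2 were recovered, with 7 false calls. The simulation drew independent normal noise and held no array that stood apart. In the data 63.2% of genes were called, so these rates need not hold there. Same-numbered arrays did not deviate together (correlations -0.0209, 0.0162 and -0.0671), so the numbers were not taken as pairs. A fold bound sets the bright group against the higher of the lowest detected signal and the dim probe's own value, by array. The precision is limited by the number of arrays.

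Members and gene lists were chosen with earlier results of these data known. Named genes were taken from the largest changes among genes detected in both groups, those detected in 1 group only, readout genes, up to 6 called and 3 uncalled members of each list, and the largest departures. Others were named after their values were seen, among them Cd80, Cdk1, Cebpb, Ccnd1, Cdkn1a, Dusp1, Ifngr1, Ifngr2, Il15, Irgm1, Jak1, Junb, Rel, Rela, Relb, Spi1, Tlr2, Tpx2 and Vcam1, to show a list's range. Promoter windows came from RefSeq, and 6325 of the tested genes had one. Alternatives changed the background, offset, scaling, detection filter, variance model, replicate block and arrays. The fit with array weights, and the list counts and fold bounds without array 1, were added after the data were seen.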

Additional observations from a re-analysis of the deposited data

Results flagged for a closer look

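Departure from additivity asks whether LPS had another effect after IFNγ than without it, so each gene here was flagged by a limma test of that difference itself. Of 7669 genes, 974 departed, or 12.7%, with 471 above and 503 below the sum of the single-agent changes. Of the 503, 50 had an additive level above 15.4, the highest level in the table, and 93 were undetected in at least 1 state. Of the 471, 111 were undetected in at least 1 state. Sums under the lowest detected signal, which favour a departure above, were not counted.

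Of the genes taken up for additivity, those detected in all 4 states with a sum not above the top of the scale were Klf9, Ednrb and Hilpda. They departed by 3.34 ± 0.31, 3.27 ± 0.25 and 3.15 ± 0.35 (SE), each above the sum and after a fall with at least 1 agent alone. For Klf9 the sum was 5.68, under the lowest detected signal of the IFNγ and LPS arrays (5.78, 5.91 and 5.9). A detected Klf9 level there thus had to lie above the sum. The sums of Ednrb and Hilpda, 6.46 and 7.43, lay above these signals. Other named genes lay below a sum inside the scale, such as Nlrc5 at 10.78 against 13.91 and Fcgr1 at 11.97 against 14.72. Whether these passed is not given here. For Cxcl9, Igtp and Ch25h the sum would be 20.86, 18.54 and 15.95, above the highest level in the table, so a level below it was fixed in advance and no departure is given. None is given for Ubd, detected on no array with LPS alone or in controls, or for Ido1, detected in the combined state alone of these 4.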

How the results depend on the processing

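The count of 4847 genes against control ran from 4451 to 4720 when single arrays were left out, with 4746 under the replicate block and 5204 with array weights. The count of at least 2-fold changes, 2397, was 1291 without background correction and 1496 with detection on all 15 arrays, where fewer genes are tested. The comparison with LPS alone, 980 genes, gave 203 with only the compared arrays, 404 to 1500 without single arrays, 685 under the block and 1406 with weights. Genes outside all 3 other states, 406 in all, numbered 190 to 680 without single arrays, and departures from additivity 640 to 1240. The block gave 284 and 765. The causes were not tested. With median scaling, B2m (0.21), Gpnmb (0.074), Lyz2 (0.22), Ldha (0.38) and Tpi1 (0.50) turned above 0, as did Tpi1 with cyclic loess (0.14). Tpi1 ran from -0.26 to 0.034 without single arrays. None of these had passed the main test. With cyclic loess B2m (-0.37), Gpnmb (-0.52) and Lyz2 (-0.35) passed as falls, as did Ldha (-0.26) without background correction. Intensities near background, in particular of genes detected in 1 group, and levels near the top of the scale limit what can be measured.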
